A study of Homo sapiens with 2 samples.

Results

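To describe LDB1 binding at the genes of membrane traffic, the RAB small GTPase genes were taken as a family. They are the 63 protein-coding genes of GENCODE release 44 whose symbol is RAB followed by a number and at most 1 letter and 1 further digit, out of 20015 protein-coding genes in all. The rule uses the symbol only and no measured value. The data were CUT&Tag peaks from NB4, a line established from human acute promyelocytic leukemia. In this assay an antibody guides a cutting enzyme to the DNA around the bound protein. The series held 1 library made with an antibody to LDB1, labelled as LDB1 overexpression, and 1 IgG library labelled as untreated, so antibody and treatment cannot be told apart. NB4 is a single line, and since neither group had a second library, values are given without a test. The measurements were the positions and lengths of 11046 deposited LDB1 peaks (229 to 4856 bp, median 451 bp) on hg38, without height or summit, and depth per peak is therefore unknown. No value of the IgG library was used here. Lists of genes that define granulocyte precursors and red cells were also counted. Of these, 6 of 10 granulocyte genes and 7 of 10 red cell genes had a peak (60% and 70%). Genes of the same lengths gave 12.8% and 14.4%. Both lists were above that share, so these counts cannot check the labelled cell type. MPO, ELANE, PRTN3 and CTSG of the granulocyte list had no peak, and neither did HBA1, HBB and HBG1 of the red cell list. HBG2 of the red cell list counted through a gene record of 252 kb. A peak does not measure whether a gene is expressed.

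RAB proteins are small GTPases that switch between an active form bound to GTP and an inactive form bound to GDP. In the active form they sit on a particular membrane and recruit effectors that move, tether and fuse vesicles. Exchange factors (GEFs) switch them on, GTPase-activating proteins (GAPs) switch them off, and in myeloid cells the family is known for its part in granule release, phagocytosis and receptor recycling. LDB1 has no DNA-binding domain and is held at DNA through LMO2 and partners such as TAL1 and GATA factors, which bind an E-box and a GATA motif side by side.

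The sequences below show that combined element, CTG followed after 7 or 8 bases by a GATA motif (A or T, then GATA, then A or G), as found in peaks at 5 of the 6 RAB genes that had it. The element of RAB2A, in the central 200 bp of its peak, is not printed or counted here. Each is printed in the direction of the element with 8 bases on either side, the CTG and the GATA motif are in capitals, and the number is the spacing between them.
RAB6B, chr3:133851632-133851664, plus strand, 8 bases: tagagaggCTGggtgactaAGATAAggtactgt
RAB28, chr4:13431231-13431263, minus strand, 8 bases: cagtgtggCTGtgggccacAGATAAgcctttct
RAB30, chr11:83008101-83008132, minus strand, 7 bases: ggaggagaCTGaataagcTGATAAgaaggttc
RAB27A, chr15:55239882-55239913, minus strand, 7 bases: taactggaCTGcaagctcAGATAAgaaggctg
RAB31, chr18:9803576-9803608, plus strand, 8 bases: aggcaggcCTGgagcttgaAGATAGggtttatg
RAB31, chr18:9803601-9803633, plus strand, 8 bases: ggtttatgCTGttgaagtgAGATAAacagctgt
RAB31, chr18:9829206-9829237, plus strand, 7 bases: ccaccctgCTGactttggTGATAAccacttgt
Among the 7 printed elements, 3 had a spacing of 7 bases and 4 a spacing of 8. The GATA motif read AGATAA in 4, TGATAA in 2 and AGATAG in 1. Of those printed, the element of RAB28 and the last of RAB31 lay within the central 200 bp of their peaks, 87 and 37 bp from the midpoint, and the others 132 to 174 bp from it. RAB31 held 3 of them.

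Results showed that the family as a whole was marked by LDB1 about as often as other genes of its size. Of the 63 RAB genes, 13 had an LDB1 peak in the gene body or within 3 kb of it (20.6%, Wilson 95% interval 12.5 to 32.2%). Of all protein-coding genes, 3947 had such a peak (19.7%). Because longer genes meet more peaks, each member was set beside the other protein-coding genes of its length class (20 classes of equal size), which gave an expected 12.6 genes or 19.95%. The ratio of found to expected was 1.03 (0.625 to 1.61). These intervals cover counting error in this library only, since genes are not replicates. The median gene length was 29.9 kb for RAB genes and 27.5 kb for all protein-coding genes.

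The 13 genes shared 29 peaks unevenly. RAB31 had 12 peaks and RAB6B had 3, while RAB27A, RAB30 and RAB37 had 2 each. The 8 remaining genes, RAB2A, RAB9A, RAB10, RAB18, RAB28, RAB33A, RAB40C and RAB42, had 1 each. At least 2 peaks were found at 5 members (7.94%), compared with 8.01% of all protein-coding genes, so multiple peaks were about as common in the family as elsewhere. At least 12 peaks were found at 1 member (1.59%) and at 20 of all protein-coding genes (0.0999%). RAB31 is 1 of those 20 genes. The limit of 12 was its own count, so 1 member reaches it by construction and these shares do not compare the family with other genes.

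**Figure D1:**
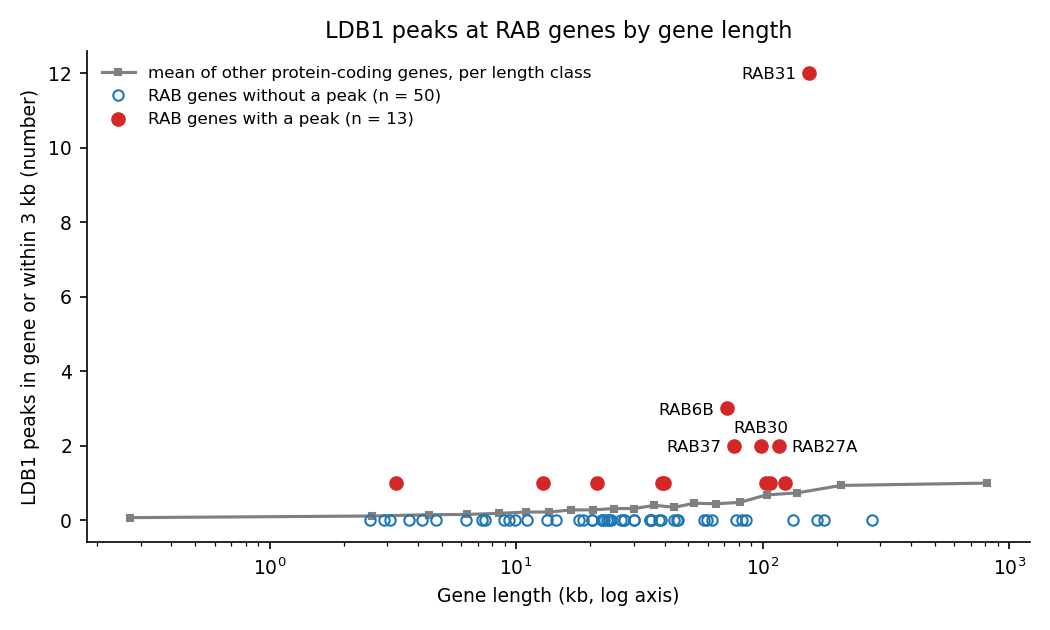
Number of LDB1 peaks in each RAB gene or within 3 kb of it against gene length in kb (log axis). Filled points are the 13 genes with a peak, open points the 50 genes without, and the line joins the mean number of peaks of other protein-coding genes in 20 length classes. RAB31 stands at 12 peaks, where its length class has a mean of 0.731, and no other member has more than 3.

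Genes with a peak were longer than genes without, with medians of 76.8 kb (3.25 to 154 kb) and 25.5 kb (2.55 to 277 kb). Among the 9 members over 100 kb, 5 had a peak (55.6%), compared with 32.1% of other protein-coding genes of that length. Between 50 and 100 kb these values were 3 of 9 (33.3%) and 24.5%. Between 10 and 50 kb they were 4 of 32 (12.5%) and 18.4%, and under 10 kb they were 1 of 13 (7.69%) and 9.95%. With so few members in each band, the counting error of these shares is wide. The 5 longest members without a peak were RAB3C (277 kb), RAB27B (178 kb), RAB11A (166 kb), RAB7A (132 kb) and RAB6A (85.5 kb). RAB3C acts in synaptic vesicle release, and its nearest peak was 567945 bp away. RAB11A, the main RAB of recycling endosomes, had its nearest peak 174555 bp away. RAB7A, which drives the maturation of late endosomes, had a peak 4694 bp outside the gene, the shortest distance among the 50 members without a peak. Over those 50 genes the median distance was 77175 bp and the longest was 818495 bp.

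RAB31 carries cargo from the trans-Golgi network to endosomes and is also known as RAB22B. The gene lies on chr18:9708275-9862551 on the plus strand, is 154 kb long and has 7 exons in its canonical transcript. Its 12 peaks covered 5926 bp, or 3.84% of the gene, and made up 6.12% of the 196 LDB1 peaks of chromosome 18. All 12 were intronic, and their midpoints lay 94.3 to 141 kb downstream of the canonical start site. The first exons and introns were free of peaks, and the nearest peak edge was 94.1 kb from that start.

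The peaks of RAB31 fell into groups when they were split at gaps of 5 kb or more. The first group, in intron 3, held 4 peaks of 342, 1409, 406 and 377 bp over 5005 bp (chr18:9802450-9807454), of which 50.6% was inside peaks. The second, in intron 5, held 5 peaks of 887, 340, 243, 436 and 450 bp over 5006 bp (chr18:9824404-9829409), of which 47.1% was inside peaks. A single peak of 309 bp stood further along intron 5, at chr18:9836719-9837027. The last group, in intron 6, held 2 peaks of 366 and 361 bp over 1735 bp (chr18:9848148-9849882). The final peak covered the start of a short RAB31 transcript without a defined coding sequence, 106 bp from its midpoint. The gaps between neighbouring peaks ranged from 268 to 16949 bp with a median of 1008 bp.

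**Figure D2:**
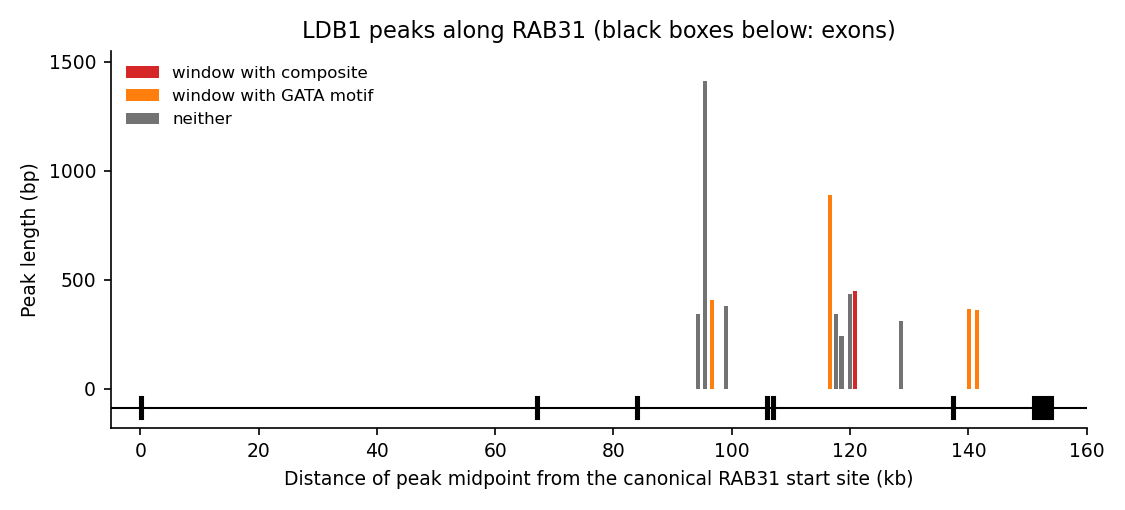
LDB1 peaks of RAB31, with the distance of the peak midpoint from the canonical start site in kb on the horizontal axis and peak length in bp on the vertical axis. Black boxes mark the 7 exons of the canonical transcript and colours mark motifs in the central 200 bp. All 12 peaks lie between 94.3 and 141 kb, and the longest measures 1409 bp.

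By number of peaks RAB31 was at the top of genes of similar length. Its length class runs from 118588 to 161583 bp and held 998 protein-coding genes outside the family, of which 32.7% had a peak. Their mean was 0.731 peaks, their median 0 and their highest value 10. Among all protein-coding genes, 15 had more peaks than RAB31. By peaks per 100 kb, with the 3 kb on either side included, RAB31 had 7.49. In its class 1 other gene was at least as dense, and among all protein-coding genes 731 were, RAB31 included. Most RAB31 peaks were short, and only 2 exceeded 600 bp. Among the peaks at or above the median length of all peaks, RAB31 kept 2, and 92 of 1000 genes of its class had at least as many. When peaks closer than 1 kb were merged it had 7, and 8 of 1000 had at least as many. The rank of RAB31 therefore rested on many separate short peaks.

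The stretch of 1 Mb on either side of RAB31 held 34 further peaks and 12 protein-coding genes including RAB31. Together with those of RAB31, 46 of the 196 LDB1 peaks of chromosome 18 (80.4 Mb) lay there, so the density was not confined to RAB31. The nearest further peaks lay 24092 bp upstream of the gene and 4153 bp downstream of it. TXNDC2 had 4 of the further peaks in or within 3 kb of it, VAPA had 2, and MTCL1, ANKRD12 and PPP4R1 had 1 each. RAB22A, the member closest to RAB31 in protein sequence (70.8% identity), had no peak, and the nearest was 256158 bp away.

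Of the RAB31 peaks, 5 of 12 had a GATA motif in their central 200 bp, 1 had the combined element, 5 an E-box (CAGNTG), 3 a RUNX motif (TGTGGT) and 1 an AP-1 motif (TGANTCA). None had the ETS motif CCGGAA. Counted over whole peaks, the longest peak held 2 combined elements, both outside its central 200 bp. The central 200 bp of the ninth and of the eleventh peak are shown because they hold its central combined element and its highest number of motifs, with each GATA motif and E-box in capitals on either strand.
RAB31, chr18:9829084-9829283, plus strand: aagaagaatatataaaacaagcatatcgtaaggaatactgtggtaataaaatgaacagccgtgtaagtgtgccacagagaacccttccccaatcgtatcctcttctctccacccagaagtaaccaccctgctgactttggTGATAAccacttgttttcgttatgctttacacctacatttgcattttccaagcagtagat
RAB31, chr18:9848230-9848429, plus strand: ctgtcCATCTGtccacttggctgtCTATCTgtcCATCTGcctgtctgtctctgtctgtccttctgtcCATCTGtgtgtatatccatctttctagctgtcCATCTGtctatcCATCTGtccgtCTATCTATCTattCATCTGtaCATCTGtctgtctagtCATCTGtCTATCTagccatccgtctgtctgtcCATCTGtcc
The second of these, chosen after its values were seen, held 4 GATA motifs and 9 E-boxes in a run of short repeats of the form CATCTG and CTATCT. Motif matches in such a run are not independent of each other. Its central 31 bases occur at 1 place in the genome.

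Members of the ER and Golgi group had a peak in 5 of 16 genes (31.3%, 14.2 to 55.6%), with 3.003 expected from their lengths. RAB6B moves Golgi vesicles backwards to the ER and is the form of RAB6 known from neurons. It had 3 peaks, of 954 bp in intron 2 and of 712 and 265 bp in intron 1. The shortest was 426 bp from an alternative start site of the gene. RAB6A, which shares 90.9% of its protein sequence, had none. RAB30, a Golgi RAB, had peaks of 418 bp in intron 3 and 1313 bp in intron 1 (chr11:83007613-83008925), the second longest of the family. RAB33A, a RAB of Golgi-derived vesicles on chromosome X, had 1 peak of 951 bp in intron 1, 7826 bp downstream of its start. RAB2A, which acts between ER and Golgi, had 1 peak of 399 bp in intron 1, and its paralog RAB2B (83.5% identity) had none. RAB18, a RAB of the ER and lipid droplets, had 1 peak of 315 bp that covered the start of the gene.

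The central windows of the longest RAB6B peak and of the RAB33A peak are shown. Each held 2 GATA motifs, in capitals, and no E-box. The RAB6B peak of 712 bp, not printed, held 1 GATA motif and 3 E-boxes in its central 200 bp.
RAB6B, chr3:133851680-133851879, plus strand: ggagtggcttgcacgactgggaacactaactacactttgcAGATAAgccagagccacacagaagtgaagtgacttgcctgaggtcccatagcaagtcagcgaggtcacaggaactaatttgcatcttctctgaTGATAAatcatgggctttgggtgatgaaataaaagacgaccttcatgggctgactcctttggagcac
RAB33A, chrX:130179688-130179887, plus strand: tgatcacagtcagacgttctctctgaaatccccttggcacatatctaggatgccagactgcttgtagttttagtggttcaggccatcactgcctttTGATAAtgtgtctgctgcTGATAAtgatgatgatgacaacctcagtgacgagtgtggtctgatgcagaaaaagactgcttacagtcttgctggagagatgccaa

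Among RABs of exocytosis and secretory granules 3 of 13 had a peak (23.1%, 8.18 to 50.3%), with 2.98 expected. RAB27A docks granules at the plasma membrane and is lost in the form of Griscelli syndrome that has an immune disorder of failed granule release. It had 2 peaks in intron 2, of 284 bp at chr15:55237158-55237441 and of 428 bp at chr15:55239548-55239975. Neither held a GATA motif, E-box, RUNX, ETS or AP-1 motif in its central 200 bp. Over the whole length the longer one held 2 GATA motifs and the combined element printed above. RAB27B, with 71.5% identity and a 178 kb gene, had no peak. RAB37, a RAB of secretory granules, had 2 peaks, and both also lay within 3 kb of another gene. The first, of 542 bp, was inside the gene record but 21948 bp upstream of the canonical start and within 3 kb of CD300LF, a myeloid receptor gene. The second, of 235 bp, was in the last exon within 3 kb of NHERF1. RAB10, which brings GLUT4 vesicles to the surface, had 1 peak of 340 bp in intron 1 without a GATA motif in its central 200 bp.

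The first RAB37 peak is shown because its E-box and GATA motif overlap, so that the capitals form a single run.
RAB37, chr17:74715208-74715407, plus strand: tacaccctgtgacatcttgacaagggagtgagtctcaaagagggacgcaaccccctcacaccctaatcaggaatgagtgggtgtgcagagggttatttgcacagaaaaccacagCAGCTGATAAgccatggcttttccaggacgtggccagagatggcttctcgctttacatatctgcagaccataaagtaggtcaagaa

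Among RABs of early and recycling endosomes RAB31 was the only gene of 17 with a peak (5.88%, 1.05 to 27.0%), with 3.41 expected. The genes without included RAB5A, RAB5B and RAB5C of early endosomes, RAB4A and RAB4B of fast recycling, and RAB11A, RAB11B and RAB25 of recycling endosomes. Of RABs of late endosomes and lysosomes 2 of 11 had a peak (18.2%, 5.14 to 47.7%), with 1.95 expected. RAB9A, which returns mannose 6-phosphate receptors to the Golgi, had 1 peak of 357 bp at its start, with a GC content of 74.5% in the central 200 bp. RAB42 had a peak of 579 bp upstream, whose midpoint was 2013 bp from its start and which was also within 3 kb of TAF12. RAB28, of the cilium and photoreceptors, had 1 peak of 688 bp in intron 4 and was 1 of 3 in its group (33.3%), with 0.645 expected. RAB40C, a substrate adaptor of a ubiquitin ligase, had 1 peak of 683 bp downstream of the gene and was 1 of 3 (33.3%), with 0.58 expected. That peak was within 3 kb of WFIKKN1 and 774 bp from the nearest start site of any gene.

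The central window of the RAB28 peak is shown because its GATA motif, read on the minus strand, belongs to the combined element.
RAB28, chr4:13431060-13431259, plus strand: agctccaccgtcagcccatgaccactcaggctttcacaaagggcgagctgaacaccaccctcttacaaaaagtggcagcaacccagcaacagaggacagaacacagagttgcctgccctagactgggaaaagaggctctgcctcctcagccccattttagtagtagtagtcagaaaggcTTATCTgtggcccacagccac

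**Figure D3:**
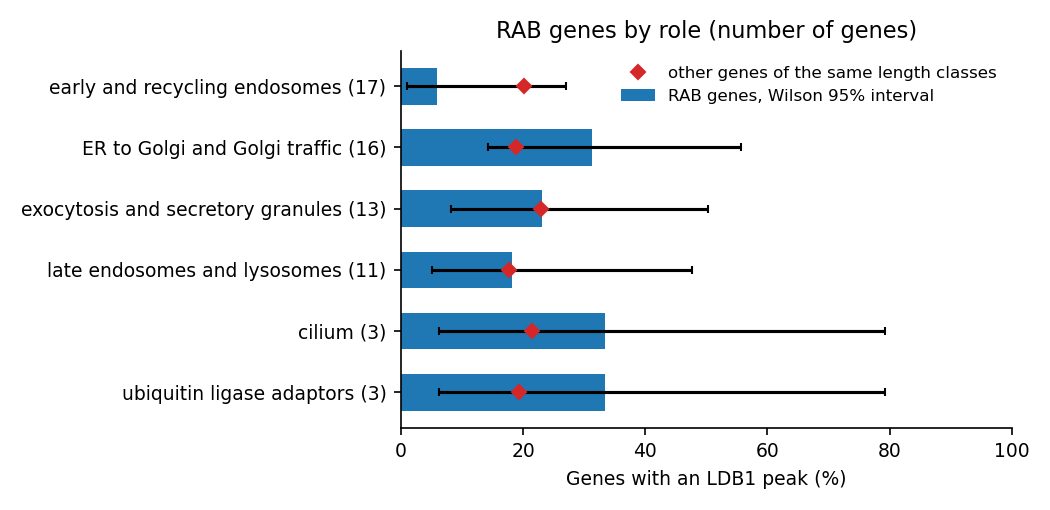
Share of RAB genes with an LDB1 peak in percent, by role, with the number of genes in parentheses. Bars are the RAB genes with Wilson 95% intervals and diamonds the other protein-coding genes of the same length classes. All 6 diamonds lie inside the intervals, and the early and recycling endosome group has the lowest share, 5.88%.

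In all 6 roles the value given by gene length lay inside the interval. Each gene was also set beside the member closest to it in protein sequence. This gave 44 different pairs, of which 29 had no peak at either gene, 14 had a peak at 1 gene and 1 had a peak at both. With a peak at 20.6% of members, most pairs of any kind lack a peak at both genes. No reference count was made, so these counts say nothing of paralogs as such. Some genes stood in several pairs, and the lowest identity was 12.1% (RAB12 and RAB44). The pair with both was RAB18 and RAB2A, with 45.7% identity. Close paralogs such as RAB1A and RAB1B (91.7%), RAB11A and RAB11B (91.3%) and RAB5A and RAB5C (87.0%) had no peak at either gene.

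Peaks at start sites were as common in the family as elsewhere. A peak within 3 kb of a start site of the gene itself was found for 7 members (11.1%), compared with 10.7% of all protein-coding genes. The 7 were RAB6B, RAB9A, RAB18, RAB30, RAB31, RAB37 and RAB42. For RAB9A, RAB18, RAB6B and RAB42 the canonical start was also near, 187, 228, 1589 and 2078 bp from the midpoint. For RAB30, RAB31 and RAB37 only alternative starts were within 3 kb. Of the 29 peaks, 24 lay in introns of the canonical transcript, 2 upstream of the gene, 1 downstream, 1 in an exon and 1 in the gene outside the canonical transcript. The 4 peaks of RAB37, RAB40C and RAB42 were the only ones that also counted for another protein-coding gene. Among RefSeq promoters on GRCh38.p14 (250 bases before to 50 after the start), 71 windows matched 50 members. Of these windows 3 overlapped a peak, those of RAB18, RAB27A and RAB9A, compared with 2.33% of all 34961 windows. The RAB27A window belongs to a RefSeq start inside intron 2, while the nearest GENCODE start of that gene was 10776 bp from the midpoint of the peak, so RAB27A was not among the 7.

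**Figure D4:**
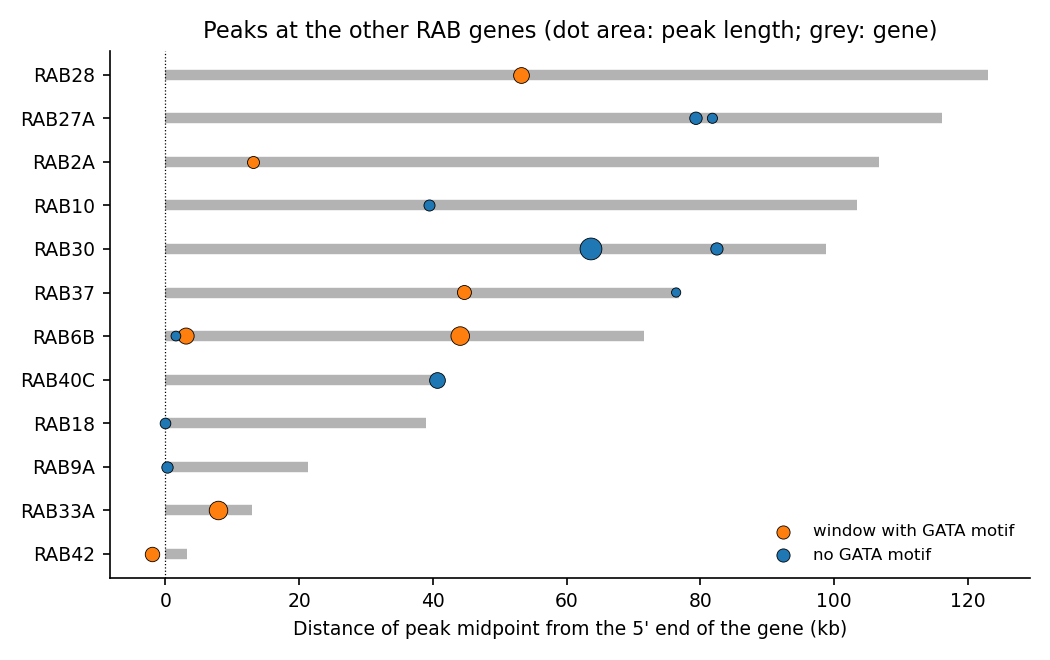
Peaks of the 12 RAB genes other than RAB31, with the distance of the peak midpoint from the 5′ end of the gene in kb on the horizontal axis. Grey bars are the genes, dot area follows peak length, and orange dots have a GATA motif in their central 200 bp. Peaks of RAB18 and RAB9A lie at the 5′ end, the peak of RAB42 lies before it, and the peak of RAB40C lies beyond the gene.

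The peak of RAB18 is shown ahead of the gene start because it combined several motifs outside the GATA family. In the bases before the gene, E-boxes, 1 AP-1 motif (TGACTCA) and 1 ETS motif (CCGGAA) are in capitals.
RAB18, chr10:27503976-27504173, plus strand: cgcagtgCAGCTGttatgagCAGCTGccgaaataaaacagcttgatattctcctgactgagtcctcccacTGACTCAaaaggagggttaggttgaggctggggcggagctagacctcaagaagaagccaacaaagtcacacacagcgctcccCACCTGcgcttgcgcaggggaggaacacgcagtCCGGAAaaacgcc
This stretch held 3 E-boxes and no GATA motif. The ETS motif was found in this peak only among the 29 central windows, while 18 of the 71 RefSeq promoters of members had it (25.4%), compared with 17.3% of all promoters.

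In the central 200 bp, the motif content of the RAB peaks was close to that of LDB1 peaks in general. A GATA motif was in the central 200 bp of 12 of 29 peaks (41.4%, 25.5 to 59.3%), compared with 47.1% of all LDB1 peaks and 27.6% of flanks 1 kb away. The combined element was in 3 (10.3%, 3.58 to 26.4%), compared with 11.1% of all peaks and 1.63% of flanks. The 3 peaks were those of RAB28, RAB2A and RAB31 (the ninth). Over whole peaks it was in 7 of 29 (24.1%), compared with 22.4% of all peaks. An E-box was in 15 (51.7%, 34.4 to 68.6%), compared with 51.5% and 43.6%. The RUNX motif was in 6 (20.7%, 9.85 to 38.4%), compared with 17.3% and 14.0%. The AP-1 motif was in 3 (10.3%) and the ETS motif in 1 (3.45%), compared with 11.9% and 3.52% of all peaks. GATA motifs were as frequent in the 12 RAB31 peaks (5) as in the 17 others (7). The flanks of the RAB peaks themselves had a GATA motif in 31.03% and the combined element in 5.17% of 58 windows. No flank was left out for meeting another peak. With a median gap of 1008 bp between RAB31 peaks, some of these windows lay inside a neighbouring peak, so they are not all unbound background. In 6 of the 29 peaks none of the motifs was found (20.7%), compared with 18.3% of all peaks. Each motif was searched on both strands, the combined element contains a GATA motif, and a match says nothing of which factor was bound.

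**Figure D5:**
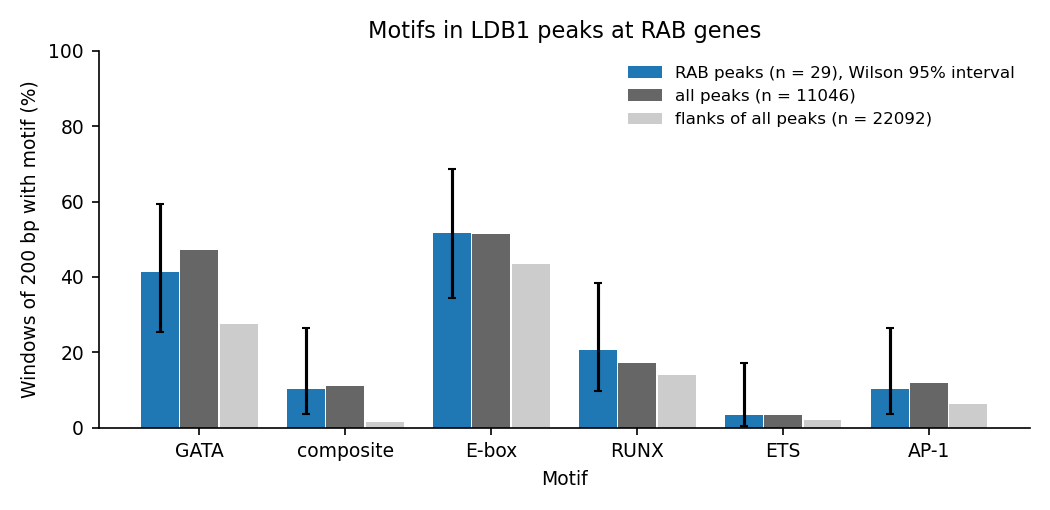
Share of 200 bp windows with each motif in percent, in the 29 RAB peaks (with Wilson 95% intervals), in all 11046 LDB1 peaks and in 22092 flanks of those peaks 1 kb away. For each of the 6 motifs the value of all peaks lies inside the interval of the RAB peaks, as for GATA with 41.4% and 47.1%.

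The RAB peaks had a median of 406 bp (235 to 1409 bp), compared with 451 bp for all peaks. It was 371.5 bp for the 12 RAB31 peaks and 428 bp for the 17 others, both below that of all peaks. The median GC content in the central 200 bp was 51% for the RAB peaks and 51.5% for all peaks. The central 31 bases were found at a single place in the genome for all 29, while 10.7% of all LDB1 peaks had a further copy. Midpoints within 3 kb of a start site of any gene made up 44.8% (13 of 29), compared with 35.6% of all peaks.

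The proteins that switch, prenylate or read RABs were examined as lists, in which RAB3GAP1 and RAB3GAP2, with no peak, stood both as GAPs and as exchange factors. Of 132 such genes, 41 had a peak (31.1%, 23.8 to 39.4%), with 25.6% given by their lengths. The list of GAPs was made up by the TBC domain, except for RAB3GAP1 and RAB3GAP2. Whether each listed protein switches a RAB off was not examined. A peak was found in 17 of 40 (42.5%, 28.5 to 57.8%), with 26.9% given by their lengths. RAB3GAP1 and RAB3GAP2 have no TBC domain, and without them 17 of 38 genes with a TBC domain had a peak (44.7%, 30.1 to 60.3%). Their lengths gave 26.6%. TBC1D5, which acts on RAB7 at the retromer, had 6 peaks in a gene of 1288 kb. TBC1D22A, TBC1D22B and TBC1D23 had 4 each, and TBC1D2 and TBC1D8 had 3 each. TBC1D22B and TBC1D23 reached that number in genes of 75.2 and 64.3 kb. USP6NL, EVI5, RABGAP1L, TBC1D7, TBC1D14 and TBC1D24 had 2 each, and TBC1D1, TBC1D4, TBC1D17, TBC1D19 and TBC1D25 had 1. Exchange factors with a DENN domain had a peak in 5 of 18 (27.8%, 26.8% by length) and other exchange factors in 5 of 20 (25%, 24.2% by length), or 5 of 18 without RAB3GAP1 and RAB3GAP2 (23.3% by length). Among the latter ANKRD27, an exchange factor of RAB21, had 3 peaks and RAB3IL1 had 2. Effectors had a peak in 13 of 49 (26.5%, 25.9% by length), with 2 each at INPP5B and SYTL3. UNC13D, which primes granules together with RAB27A, had 1. Of 7 genes for GDP dissociation inhibitors and prenylation, 1 had a peak (14.3%, 18.3% by length). It was RABGGTB, a subunit of the enzyme that attaches the lipid anchor.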

How the data were processed

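CUT&Tag of NB4 cells was analysed from the deposited LDB1 peak list (start, end and length in bp, called by the authors on hg38, with no other value column). Per the submitters' processing notes, the authors used Bowtie2 2.4.4 and MACS3 3.0, with a q-value limit of 0.01 in the methods. Whether IgG was the control and how duplicates were treated is not given in the sources used here. Peaks were assigned to GENCODE 44 genes by an overlap of at least 1 bp with the gene and 3 kb on either side. Expected shares are those of the 20 length classes, without the members. Motifs were searched around the peak midpoint, since no summit was at hand, and flanks were 1 kb away, also where they met another peak. Closest members were found by aligning translated canonical coding sequences.

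Intervals are Wilson 95% intervals for counting error only. No test was made. Members, roles and lists were chosen with earlier results of these data known. Named were members with at least 2 peaks, a peak within 3 kb of an own start or the combined element, the 5 with the longest peaks and the 5 longest without a peak, and the rest by counts. Windows with a GATA motif were printed for 1 peak per gene, a peak with the combined element first and otherwise the longest. RAB2A was left out, and so was RAB42, whose window holds exon bases. The windows of RAB18 and of the eleventh RAB31 peak, the composite sites over whole peaks and the regulator genes named were added after their values were seen. Alternatives were other gene windows, peak lists, length classes and motif windows. Python 3.11.15, numpy 2.4.6, pandas 2.3.3, pysam 0.24.0, Biopython 1.88 and matplotlib 3.10.9 were used. Peak counts were checked by a separate direct count on a sample of genes. The motif search and the expected share were checked on simulated data.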

Additional observations from a re-analysis of the deposited data

How the results depend on the processing

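Of 136 alternative values for 17 results, 108 stayed inside the counting interval of a share or ratio or close to the number of peaks, and 28 moved further. Of the 28, 12 belonged to the small role groups. The ratio of RAB genes with a peak to the number given by gene length ranged from 0.862 (1 kb of a start site) to 1.18 (10 kb around the gene) and was 0.999 with the longer peaks, so its side of 1 depended on the setting. The GATA share was below that of all peaks in 200 bp but above it in 100 bp (31.03% and 28.2%). In the 16 RAB peaks over 3 kb from any start site the GATA share was 37.5%, compared with 49.9% of all such peaks. The combined element was below in 200 bp but above over whole peaks (24.1% and 22.4%). It was also above in peaks over 3 kb from any start site (12.5% and 11.7%) and without RAB31 (11.8% and 11.1%). Counting only peaks within 3 kb or 1 kb of a start site lowered the share of RAB genes to 11.1% and 6.35%, by construction, and all protein-coding genes fell to 10.7% and 7.19%. The same settings gave 15.2% and 12.1% for regulators and effectors (11.6% and 7.83% by length). Keeping only the longer peaks gave 17.4% for regulators (16.2% by length), 10 peaks at RAB genes and 2 at RAB31. Merging peaks closer than 1 kb gave 7 at RAB31. Without RAB31 the family had 17 peaks. In the gene body only, or with each peak given to its nearest gene only, RAB40C and RAB42 no longer had a peak. Both settings left 11 of 63 members (17.5%), compared with 16.5% and 17.2% of all protein-coding genes. The GATA share was 65.5% over whole peaks (71.4% of all peaks), and the combined element was in 3.45% of RAB peaks within 100 bp (5.49% of all peaks), both by the length searched. Leaving out RAB31, the ratio at start sites, the number of RAB peaks under other peak lists, extents and assignments, and all alternatives for RAB31 alone, for roles and for regulators were chosen after seeing the data. No paired analysis was possible because there was only 1 library with each antibody. With 13 genes and 29 peaks, only large differences from other genes could be detected.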
